A study of Mus musculus with 12 samples.

Results

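The comparison described here asked which genes differed between Foxc1 knockout and control hair follicle stem cells in the same way at both sampled stages of the hair cycle. It used 12 of the 12 libraries of the series, 6 knockout (KO) and 6 control (WT). These were all the columns of the anagen and early telogen count tables, joined on the 37931 gene names that both tables held. Genotype was tested in a model that also held the stage, so each value below is the average KO effect over stages within which KO was compared with WT.

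RNA of hair follicle stem cells from mouse back skin was sequenced after oligo(dT) selection. Cells were sorted as positive for H2BGFP, CD34 and CD49f and negative for Sca-1, so Cd34, Itga6 (CD49f) and Ly6a (Sca-1) are genes of the sort itself. KO mice carried K14-H2BGFP, K14Cre and Foxc1 fl/fl, and WT mice carried K14-H2BGFP and Foxc1 fl/fl without Cre. The keratin 14 promoter that drove Cre is active in basal keratinocytes of the whole epidermis and follicle, not in stem cells alone, and no group had Cre without floxed Foxc1.

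The anagen groups held 2 KO libraries (titled day 29 and 31) and 3 WT libraries (titled day 29, 30 and 31). The early telogen groups held 4 KO libraries (titled day 43 for replicate 5 and day 47 for replicates 1, 2 and 3) and 3 WT libraries (day 47, replicates 1, 3 and 4). Anagen WT replicate 3 carried an age label of 43 days and early telogen KO replicate 5 one of 47 days, which differ from their titles, and both were grouped by the table that held them. Both anagen KO libraries were from females and 2 of the 3 anagen WT libraries from males, while 1 KO and 1 WT library of early telogen were from males. The labels do not say that libraries came from separate animals, so p-values measure the spread between these samples, which may be technical. Stage, table and depth differ together, so levels are compared between stages here only as a description. Anagen libraries held 28115310 to 52692280 counts over the shared genes. Early telogen libraries held 2658749 to 11807099, the fewest in KO replicate 5. The 10 defining stem cell markers summed to 22590 to 36170 CPM (counts scaled to a common total over the shared genes), and 0 of them were at 0 in every library of a group.

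Hair follicle stem cells rest in the bulge of the follicle for most of the hair cycle and divide briefly when a new growth phase, anagen, begins. In telogen the follicle rests, and the stem cells are held there by signals such as BMP and FGF18 and by transcription factors such as NFATc1 and FOXP1. FOXC1 is a forkhead transcription factor of the bulge that has been tied to this resting state.

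Foxc1 itself (chromosome 13, 31806633 to 31812476, plus strand) checked the labels. It stood at 0.213 and 0.285 CPM in the anagen KO libraries and at 35.8, 119.8 and 48.8 CPM in anagen WT. In early telogen it stood at 1.13, 2.29, 3.11 and 0.911 CPM in KO and at 43.9, 59.2 and 61.2 CPM in WT. No KO library reached a WT library at either stage. The shared log2 fold change (KO minus WT) was -6.11 ± 0.62 (SE, edgeR adjusted p = 0.00207), and the sources used here do not say which part of the gene was removed.

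Across 12425 genes tested, 182 (1.46%) passed an edgeR adjusted p of 0.05 for the shared effect. Of these, 52 rose (0.419% of genes tested) and 130 fell (1.05%) in KO. The genes that fell included channels, receptors, calcium-handling proteins, collagen IV chains and Cd34. The genes that rose included cell division genes, antigen presentation genes and transporters. Of all genes tested, 1978 had an unadjusted p under 0.05 and the median log2 fold change was 0.04. In bulk libraries fewer cells of a type and less RNA per cell cannot be told apart.

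Among the 52 genes that rose, the median log2 fold change was 1.19, and the largest was 2.21. Among the 130 that fell the median was -1.06, and 19 had an absolute log2 fold change of 2 or more against 4 of those that rose. KO and WT libraries did not overlap at either stage for 42 of the 52 and for 121 of the 130, which the call itself favours. Over all genes tested, 457 (3.68%) were apart in the same direction at both stages, 162 (1.3%) higher and 295 (2.37%) lower. All 182 had the same sign at both stages, which the call itself favours, so this is a description. The plot of one stage against the other shows them in 2 quadrants.

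**Figure D1:**
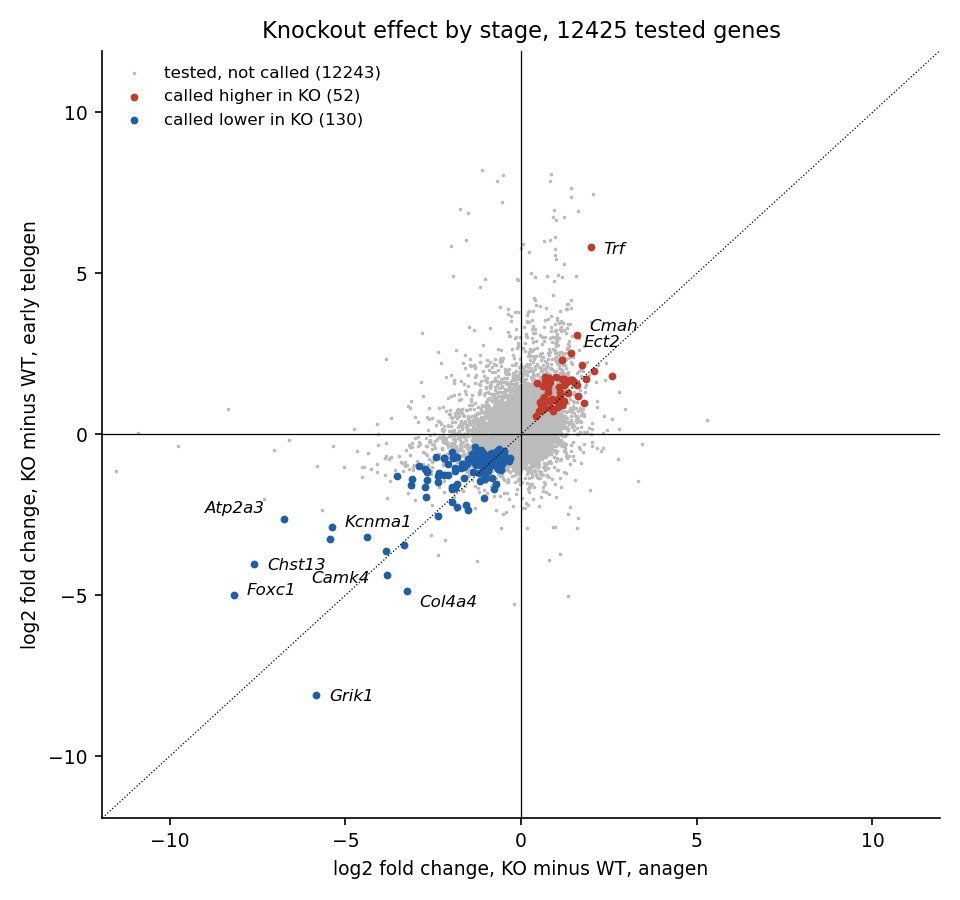
Log2 fold change (KO minus WT) in anagen on the x axis and in early telogen on the y axis for 12425 genes, with the 52 genes called higher in red, the 130 called lower in blue and all others in grey. The dotted line marks equal values, and among called genes the shared log2 fold change ran from -7.21 (Grik1) to 2.21 (Trf).

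Most of the 182 genes needed both stages to be called. When the 4 group means were fitted separately, 155 genes (1.25%) passed in anagen, 7 higher (0.0563%) and 148 lower (1.19%). In early telogen 32 (0.258%) passed, 12 higher (0.0966%) and 20 lower (0.161%). Of the 182, 122 passed in neither. Of the genes that rose, 44 of 52 passed at no single stage, and of those that fell, 78 of 130. A further 120 genes passed at a stage and not in the shared test. A test of whether the stages differed in their KO effect called 0 of the 182 in edgeR, with 28 at an unadjusted p under 0.05 and a smallest adjusted p of 0.0722, and 11 in DESeq2. Over all genes tested edgeR called it for 19 (0.153%). Without anagen WT replicate 1, 6 of the 182 differed between stages. A p above the threshold does not show that the effect was equal at both stages. By estimate, the effect was larger in anagen for 87 of the 130 genes that fell (median -1.19 in anagen and -0.95 in early telogen) and larger in early telogen for 38 of the 52 that rose (median 1.06 and 1.30).

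The number of calls moved with single libraries. It fell to 12 higher and 43 lower without early telogen WT replicate 3, and to 18 and 59 without anagen KO replicate 1. Without early telogen WT replicate 4 it was 18 and 81. It was 27 and 86 without early telogen KO replicate 5, and 32 and 84 without early telogen KO replicate 1. It was 32 and 106 without anagen WT replicate 2, 32 and 133 without early telogen WT replicate 1, and 73 and 79 without anagen KO replicate 2. It was 117 and 136 without anagen WT replicate 1, and 46 and 197 without early telogen KO replicate 3. A total of 43 genes, 7 that rose and 36 that fell, passed in each of the 12 fits that left out a library. Each of the 182 kept its sign in those fits and under every other alternative that gave it a value, scaling included. With sex as a covariate, 50 genes rose and 130 fell, 129 of them among the 182. Without the 2 libraries whose title and age label differ, 26 rose and 44 fell, 60 of them among the 182. The titles give anagen KO and WT libraries the same day in 2 cases, and the deviations of such libraries from their group means correlated at 0.45 (day 29) and 0.38 (day 31). Same-numbered early telogen libraries correlated at 0.08 and 0.04. Because anagen KO held 2 libraries, their deviations mirror each other, so the 2 anagen values are not independent. They cannot be set against the early telogen values. With the title day in anagen and the replicate number in early telogen as a block, 0 genes rose and 4 fell. Camk4, Papln and Smarca2 were the 3 of these among the 182, and Foxc1 did not pass (log2 fold change -6.19, edgeR adjusted p = 0.0555). With a block for the title day in anagen alone, an alternative chosen after seeing the data, 90 rose and 148 fell, 149 of them among the 182, and Foxc1 passed (edgeR adjusted p = 0.000202).

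**Figure D2:**
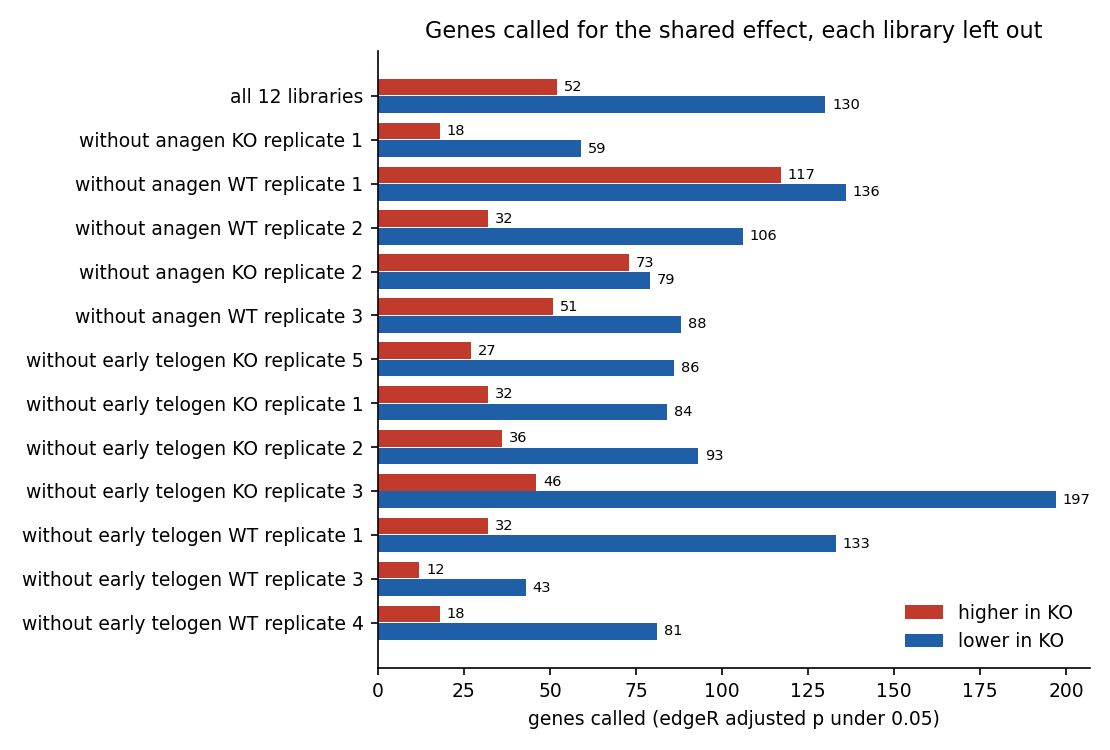
Number of genes called higher (red bars) and lower (blue bars) in KO on the x axis, with all libraries and with each of the 12 left out in turn. The counts run from 12 to 117 higher and from 43 to 197 lower.

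Grik1 had the largest fall of the 130 genes that fell. Grik1 (chromosome 16, 87895900 to 88290265, minus strand), a kainate-type glutamate receptor subunit, was at 0 and 0.0711 CPM in anagen KO and at 0.190, 2.995 and 2.94 CPM in anagen WT. In early telogen it was at 0 CPM in 3 of the 4 KO libraries and 0.178 CPM in the other, against 8.40, 18.4 and 16.3 CPM in WT. Each KO group held 2 Grik1 counts in all, which gives a ratio of WT to KO of 55.5 in anagen (95% exact interval 15.1 to 461) and of 248 in early telogen (68.3 to 2058). These intervals cover counting error only. KO libraries held next to no Grik1 at either stage, and its level in WT was higher in early telogen than in anagen. The shared log2 fold change was -7.21 ± 0.88 (edgeR adjusted p = 0.00364).

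Kcnma1, the large-conductance potassium channel gated by calcium and voltage, was at 0.0798 and 0.0356 CPM in anagen KO and 1.61, 2.96 and 3.34 CPM in WT. In early telogen the KO libraries held 3.39, 1.27, 1.51 and 5.87 CPM and the WT libraries 24.1, 19.8 and 16.5 CPM. KO stayed under WT at each stage, although early telogen KO libraries held about as much Kcnma1 as anagen WT ones. Its shared log2 fold change was -3.54 ± 0.53 (edgeR adjusted p = 0.00823). Sema3e, an axon guidance ligand, fell by 1.33 ± 0.26 in log2 units (edgeR adjusted p = 0.0264).

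Grik1, Kcnma1 and Sema3e were the members that fell in a list of ion channel and neural-type genes, 3 of 20 tested (15%, against 1.05% of all genes), with 0 that rose. Of the 20, 16 were lower in KO by estimate, and the median log2 fold change was -0.89. The list was drawn up with falls in these libraries known, so its direction is no independent evidence. Grik1 and Kcnma1 passed in each of the 12 fits that left out a library, and Sema3e in 7.

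Of 32 tested calcium-handling genes 4 fell. Cacna1c (chromosome 6, 118587240 to 119196418, minus strand), the pore of an L-type calcium channel, was at 2.37 and 1.07 CPM in anagen KO and 8.14, 19.2 and 15.6 CPM in WT. Its early telogen levels were 16.9, 26.6, 24.8 and 26.2 CPM in KO and 62.0, 61.8 and 42.5 CPM in WT. The groups were apart at each stage, but the early telogen KO libraries overlapped or exceeded the anagen WT ones. The shared log2 fold change was -2.05 ± 0.36 (edgeR adjusted p = 0.0166), and the call was lost in 1 of 12 fits that left out a library, with an adjusted p of 0.0639 without anagen KO replicate 1. Cacna2d2, an accessory subunit of such channels, fell by 2.08 ± 0.34 in log2 units (edgeR adjusted p = 0.00996).

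Camk4, a calcium and calmodulin dependent kinase, had one of the steadiest falls. Its levels were 2.47 and 6.47 CPM in anagen KO against 23.9, 108 and 45.5 CPM in WT, and 1.13, 1.27, 0.623 and 1.52 CPM in early telogen KO against 17.6, 23.1 and 21.1 CPM in WT. The lowest WT library lay well above the highest KO library at each stage, and the log2 fold change was -3.82 in anagen and -4.36 in early telogen. The shared log2 fold change was -4.08 ± 0.43 (edgeR adjusted p = 0.00207). Atp2a3, a pump that loads calcium into the endoplasmic reticulum, fell by 4.12 ± 0.79 in log2 units (edgeR adjusted p = 0.0280). Its fall was -6.75 in anagen and -2.63 in early telogen, where 2 WT libraries held 7.42 and 8.002 CPM and replicate 1 held 25.5 CPM. Camk4 passed in each of the 12 fits that left out a library and Atp2a3 in 9.

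Stim1, the sensor of calcium stores, fell by 0.51 ± 0.12 in log2 units (edgeR adjusted p = 0.0482) and passed in 1 of 12 fits that left out a library. Camk4, Atp2a3, Cacna1c and Stim1 were the 4 of 32 tested calcium-handling genes that fell (12.5%, against 1.05% of all genes), and 0 rose. This list too was drawn up with earlier results of these data known, so the share is no independent evidence. The remaining 28 did not pass, and the median of the 32 was 0.00, with 16 positive and 16 negative. The number of its members that fell was 2 to 4 over the 12 fits, with 2 without anagen KO replicate 1 or 2, early telogen KO replicate 2 or early telogen WT replicate 1. Trpv4, a calcium-permeable channel outside the list that was chosen after its values were seen, fell by 0.81 ± 0.13 (edgeR adjusted p = 0.00996), by 0.81 at each stage.

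**Figure D3:**
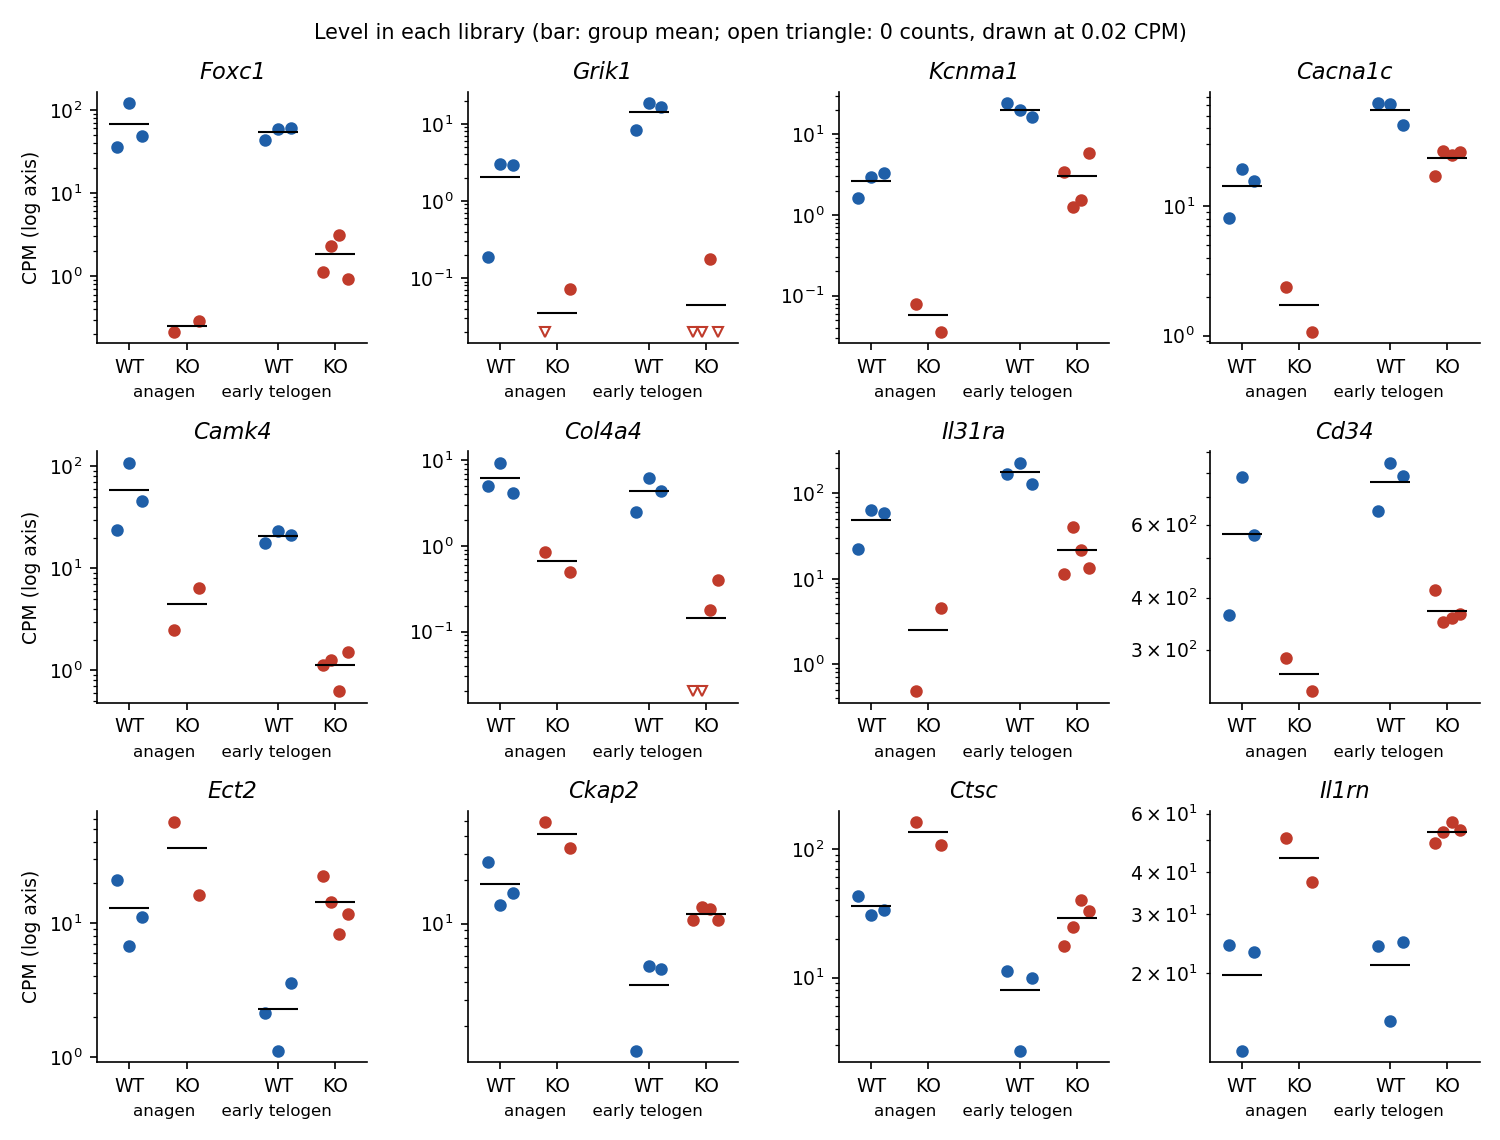
Level of 12 genes in each library, in CPM on a log y axis, for WT (blue) and KO (red) libraries of anagen and early telogen on the x axis, with a bar at the group mean and an open triangle for a library with 0 counts. Camk4 and Cd34 are apart between genotypes at both stages, while Ect2 overlaps between genotypes in anagen.

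A neurotrophic factor and a receptor of another such factor fell as well. Bdnf, brain-derived neurotrophic factor, fell by 2.20 ± 0.48 in log2 units (edgeR adjusted p = 0.0464), with overlap in early telogen, where KO ranged up to 29.4 CPM and WT down to 24.5 CPM. Gfra2, a co-receptor for neurturin, fell by 1.93 ± 0.34 (edgeR adjusted p = 0.0153). In the 12 fits that left out a library Gfra2 passed in 11 and Bdnf in 4. Gfra2 was singled out after its values were seen.

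Il31ra, a receptor chain for the cytokine interleukin 31, fell at both stages. It was at 0.479 and 4.55 CPM in anagen KO and at 22.1, 64.3 and 58.7 CPM in WT. In early telogen KO held 11.3, 40.5, 21.4 and 13.4 CPM and WT 170.4, 228 and 130.3 CPM. All KO libraries were under the WT libraries of their stage, with a shared log2 fold change of -3.65 ± 0.55 (edgeR adjusted p = 0.0107), and the call held in each of the 12 fits.

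Of the collagen IV chains that build specialised basement membranes, Col4a4 and Col4a3 fell together. Col4a4 was at 0.851 and 0.498 CPM in anagen KO against 5.01, 9.30 and 4.13 CPM in WT. In early telogen it was at 0, 0, 0.178 and 0.405 CPM in KO against 2.50, 6.22 and 4.41 CPM in WT. The shared log2 fold change of Col4a4 was -3.93 ± 0.56 (edgeR adjusted p = 0.00561). Col4a3, named after its values were seen, was at 0.639 and 0.178 CPM in anagen KO against 2.73, 7.30 and 2.05 CPM in WT, and at 0.376, 0, 0.0890 and 0.607 CPM in early telogen KO against 1.79, 4.08 and 0.980 CPM in WT. It fell by 3.38 ± 0.70 in log2 units (edgeR adjusted p = 0.0288), and both genes were low in WT and lower still in KO at either stage. The Col4a3 counts were few, with 6 in early telogen KO replicate 3 and 6 in early telogen WT replicate 4. Col4a4 passed in each of the 12 fits that left out a library and Col4a3 in 6.

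Col4a3 and Col4a4 lie head to head on opposite strands of chromosome 1 with 71 bases between their starts, so a single stretch of sequence stands before both. It is shown because the genes moved together. The window chr1:82586800-82587099 (GRCm38.p6, RefSeq promoter of Col4a4, written on the minus strand) holds both starts, and the capitals mark the 71 bases between them.
Col4a4: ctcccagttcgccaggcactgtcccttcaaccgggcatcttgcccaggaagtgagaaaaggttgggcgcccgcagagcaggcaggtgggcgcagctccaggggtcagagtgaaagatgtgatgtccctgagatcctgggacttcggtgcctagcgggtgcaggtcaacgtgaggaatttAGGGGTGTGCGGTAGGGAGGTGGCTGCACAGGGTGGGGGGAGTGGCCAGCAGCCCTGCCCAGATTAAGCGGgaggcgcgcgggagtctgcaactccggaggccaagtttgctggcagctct

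Cpa4, a carboxypeptidase, fell by 2.25 ± 0.44 in log2 units (edgeR adjusted p = 0.0288), from 60.5 to 103 CPM in anagen WT to 10.5 and 14.7 CPM in KO. Serpinb6c, a serine protease inhibitor, fell by 2.47 ± 0.46 (edgeR adjusted p = 0.0176), a value that is uncertain because the Serpinb6 genes are close copies of each other. Fam171b, a membrane protein, fell by 2.17 ± 0.47 (edgeR adjusted p = 0.0459). Other secreted and matrix genes that fell, chosen after their values were seen except Papln, included Papln, Ecm1 and Gpc6. Papln, the extracellular matrix glycoprotein papilin, fell by 1.78 ± 0.23 in log2 units (edgeR adjusted p = 0.00391). Ecm1, a secreted glycoprotein of skin, was at 118 and 106 CPM in anagen KO against 329, 392 and 621 CPM in WT, and at 507, 595, 439.5 and 656 CPM in early telogen KO against 987, 1296 and 1299 CPM in WT. KO was lower at both stages while both genotypes held more Ecm1 in early telogen, and the shared log2 fold change was -1.60 ± 0.23 (edgeR adjusted p = 0.00520). Gpc6, a glypican, a heparan sulphate proteoglycan of the cell surface, fell by 1.96 ± 0.26 (edgeR adjusted p = 0.00391). Of 32 tested cell-matrix adhesion genes 1, Lamb3, a chain of laminin 332, fell (3.125%, against 1.05% of all genes), and 0 rose. The fall of Lamb3 was 0.81 ± 0.16 in log2 units (edgeR adjusted p = 0.0251). The median of the 32 was -0.28, with 23 negative. In the 12 fits that left out a library Papln, Ecm1 and Gpc6 passed in 12, Serpinb6c in 11, Lamb3 in 9, Cpa4 in 6 and Fam171b in 5.

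Fmn1 and Fchsd1, which act on actin, fell in KO. Fmn1, a formin that nucleates actin filaments, was at 3.88 and 4.16 CPM in anagen KO against 7.12, 22.6 and 15.1 CPM in WT and at 5.27, 8.22, 6.58 and 7.29 CPM in early telogen KO against 24.2, 32.8 and 21.7 CPM in WT. The fall was alike in size at the stages by estimate (-1.97 and -2.10), with a shared log2 fold change of -2.04 ± 0.26 (edgeR adjusted p = 0.00364). Fchsd1, an F-BAR protein of the membrane-actin interface, fell by 1.58 ± 0.19 (edgeR adjusted p = 0.00207). Together with Foxc1, Camk4, Kcnma1 and Papln, these genes made up the 6 (0.0483%) that passed as lower at each stage tested alone, and 0 genes passed as higher at each.

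Zyx, the focal adhesion protein zyxin, was at 462 and 480.4 CPM in anagen KO against 917, 740.1 and 752 CPM in WT, and at 278, 414, 236 and 424 CPM in early telogen KO against 901, 729 and 708 CPM in WT. Its shared log2 fold change was -1.14 ± 0.19 (edgeR adjusted p = 0.0124). Actb, cytoplasmic beta-actin, fell by 0.99 ± 0.15 (edgeR adjusted p = 0.00823), from 2607 to 3344 CPM in anagen WT to 1384 and 1679 CPM in KO, and from 4729 to 5174 CPM to 2171 to 3319 CPM in early telogen. Actg1, gamma-actin, fell by 0.75 ± 0.17 (edgeR adjusted p = 0.0441), and so did Srf (-0.75 ± 0.17, edgeR adjusted p = 0.0442), the transcription factor that controls many actin genes. Actb and Zyx passed in each of the 12 fits that left out a library, Srf in 3 and Actg1 in 1. These 4 genes were singled out after their values were seen. Actin genes have many close copies, and the share of reads placed at more than 1 position, which are not counted, was 31.1% and 32.8% in anagen KO and 20.1% to 25.8% in anagen WT. Its part in the Actb and Actg1 values was not tested.

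Among bulge stem cell markers, Cd34 and Foxc1 were the 2 of 27 tested that fell (7.41%, against 1.05% of all genes), and 0 rose. Foxc1 is the gene knocked out, so its fall follows from the design, which leaves Cd34. Cd34 (chromosome 1, 194938819 to 194961279, plus strand) was at 286 and 238 CPM in anagen KO against 364, 782 and 566 CPM in WT, and at 417, 349.8, 357 and 366 CPM in early telogen KO against 648, 846 and 788 CPM in WT. The groups did not overlap at either stage, and the log2 fold change was -1.20 at each, with a shared value of -1.20 ± 0.19 (edgeR adjusted p = 0.00823). CD34 was used to sort the cells, so the fall is among cells that all passed a CD34 gate. Of the 27 markers, 24 were negative, and their median log2 fold change was -0.34 beside 0.04 over all genes. The gene lists, this one included, were drawn up with earlier results of these data known, so their shares and signs are no independent evidence. Sox9 (-0.34), Lhx2 (-0.47), Tcf7l1 (-0.10), Lgr5 (0.17) and Krt15 (-0.98) did not pass (edgeR adjusted p of 0.198 for Krt15 to 0.841 for Tcf7l1).

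Of 20 factors tied to quiescence, Foxc1 and Prlr, the prolactin receptor, fell (10%, against 1.05% of all genes), and 0 rose. Foxc1 is the gene knocked out, so its fall follows from the design, which leaves Prlr. Prlr fell by 0.92 ± 0.18 in log2 units (edgeR adjusted p = 0.0221) and passed in 9 of 12 fits that left out a library. Several others lay just outside the threshold. Bmp2, a BMP ligand, was at 9.26 and 12.3 CPM in anagen KO against 43.5, 52.0 and 50.4 CPM in WT and at 191, 163, 106 and 263 CPM in early telogen KO against 272, 291 and 285 CPM in WT. It did not overlap between genotypes at either stage, with a shared log2 fold change of -1.36 ± 0.31 (edgeR adjusted p = 0.0504). Fgf18 had a value of -2.26 ± 0.53 (edgeR adjusted p = 0.0504), Foxp1 one of -0.68 ± 0.16 (0.0554) and Bmp6 one of -1.54 ± 0.37 (0.0602). Nfatc1 was at -0.68 ± 0.23 (edgeR adjusted p = 0.168), with -1.36 in anagen and -0.22 in early telogen. All 4 of these (Bmp2, Fgf18, Foxp1 and Bmp6) passed with DESeq2, and Foxp1 and Fgf18 also with DESeq2's size factors in edgeR. DESeq2 called many more genes than edgeR, 286 higher and 453 lower against 52 and 130. In the 12 edgeR fits that left out a library, Fgf18 passed in 3, Bmp2 in 2, and Foxp1 and Bmp6 in 1 each. The median of the 20 was -0.50.

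A few genes of neighbouring follicle and epidermal layers fell. Krt75, a keratin of the companion layer, fell by 1.66 ± 0.34 in log2 units (edgeR adjusted p = 0.0289), and was the 1 of 10 companion and inner bulge genes that passed. Sbsn, suprabasin of differentiating epidermis, was at 355 and 441 CPM in anagen KO against 855, 1454 and 1170.2 CPM in WT and at 839, 858, 889 and 867 CPM in early telogen KO against 1756, 1400.3 and 1499 CPM in WT. Its shared log2 fold change was -1.26 ± 0.17 (edgeR adjusted p = 0.00485). Sbsn and the transcription factor Ovol1 (-1.05 ± 0.24, edgeR adjusted p = 0.0482) were the 2 of 27 epidermal differentiation genes that fell. S100a3, a calcium-binding protein of the hair cuticle, fell by 1.40 ± 0.29 (edgeR adjusted p = 0.0329), with overlap in early telogen, and was the 1 of 10 hair shaft genes that passed. Among 17 hair germ, matrix and inner root sheath genes Ovol1 was the 1 that passed, and no gene passed in edgeR among 8 of the isthmus and infundibulum (3 at an unadjusted p under 0.05, 1 by DESeq2) or 11 of the sebaceous gland (0 and 0). The shares that fell were 10% (companion and inner bulge), 7.41% (epidermal differentiation), 10% (hair shaft) and 5.88% (hair germ list), against 1.05% of all genes. Sbsn passed in each of the 12 fits that left out a library, Krt75 in 6, S100a3 in 5 and Ovol1 in 2.

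Cell division genes were higher in KO at both stages by estimate, though few passed. Of 39 mitosis genes tested, 3 rose (7.69%, against 0.419% of all genes) and 0 fell. The log2 fold changes of 39 of 39 were positive at each stage, and 54.7% of all genes were positive for the shared effect. This list was drawn up with earlier results of these data known, so its share and signs are no independent evidence. The median was 1.78 for the shared effect, 1.14 in anagen and 2.34 in early telogen, beside 0.04 over all genes. The 3 that rose were Ect2, a guanine nucleotide exchange factor of the cleavage furrow, Cenpa, the histone variant of the centromere, and Ckap2, a spindle protein.

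Ect2 was at 56.2 and 16.1 CPM in anagen KO against 20.95, 6.79 and 11.2 CPM in WT, and at 22.6, 14.4, 8.27 and 11.7 CPM in early telogen KO against 2.14, 1.11 and 3.59 CPM in WT. KO and WT overlapped in anagen, where the day 29 libraries of each genotype were the highest, and were apart in early telogen. The shared log2 fold change was 1.99 ± 0.45 (edgeR adjusted p = 0.0482). Ckap2 was at 49.2 and 32.8 CPM in anagen KO against 26.4, 13.5 and 16.1 CPM in WT, and at 10.5, 12.9, 12.5 and 10.6 CPM in early telogen KO against 1.34, 5.10 and 4.90 CPM in WT. On levels scaled by TMM, the Ckap2 groups were apart at both stages. That held, higher in KO, for 1 of the 39 mitosis genes and for 162 (1.3%) of all 12425 genes tested. The shared log2 fold change of Ckap2 was 1.27 ± 0.29 (edgeR adjusted p = 0.0459). Cenpa rose by 1.47 ± 0.33 (edgeR adjusted p = 0.0461). The proliferation marker Mki67 did not pass, at 1.93 ± 0.51 (edgeR adjusted p = 0.0851), with 162 and 34.1 CPM in anagen KO, 84.1, 27.0 and 12.9 CPM in anagen WT, 46.5 to 50.02 CPM in early telogen KO and 5.66 to 8.58 CPM in early telogen WT.

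Which mitosis genes passed rested on the libraries and the settings used. Of the 39, 26 rose without anagen WT replicate 1, 18 without anagen KO replicate 2 and 1 without early telogen WT replicate 1. Without any 1 of the other 9 libraries 0 rose. Among all genes, 117 rose without anagen WT replicate 1, 73 without anagen KO replicate 2 and 32 without early telogen WT replicate 1. With sex as a covariate 0 passed, and the median was 1.67. With the block for title day and replicate number 0 passed and the median was 1.61. Blocking on the title day in anagen alone, 19 rose, beside 90 among all genes. The median stayed between 1.49 and 2.18 in the 12 fits that left out a library, with 39 of 39 positive in each. By DESeq2, 29 of the 39 rose, beside 286 among all genes. Among 27 DNA replication genes 0 passed in edgeR, 15 had an unadjusted p under 0.05 and DESeq2 called 6, all higher. Of the 27, 25 were positive with a median of 0.54, and the number that rose in edgeR was 0 to 6 over the 12 fits. Of 15 genes for G1 cyclins, kinases and E2F factors, 13 were positive with a median of 0.20, and 0 rose. Myc, a transcription factor that promotes growth, was the member that fell (6.67%, against 1.05% of all genes). Myc fell by 0.72 ± 0.16 in log2 units (edgeR adjusted p = 0.0351) and passed in 5 of the 12 fits.

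The promoters of Ect2, Cenpa and Ckap2 are shown because genes of the mitosis list share elements there that are known from cell cycle promoters. These are the CCAAT box, which binds the factor NF-Y, and the cell cycle genes homology region, with the letters TTTGAA. Windows of 300 bases, 250 before and 50 after each RefSeq start (GRCm38.p6), were searched on both strands, each motif counted on its own. Of the 39 mitosis genes, 35 had a promoter in the RefSeq table, with 37 windows in all. CCAAT was in 28 of the 37 (75.7%) and TTTGAA in 29 (78.4%), against 37.7% and 12.04% of 12357 windows of tested genes, and 37.4% and 17.9% of all 32851 windows of the table. In windows of the genes that rose CCAAT was in 24 of 46 (52.2%), and in those of the genes that fell in 41 of 146 (28.1%). TTTGAA was in 8 of 46 (17.4%) and 14 of 146 (9.59%). The share in genes that rose lay above the 12.04% of tested genes and near the 17.9% of all windows of the table. These differences were not tested. This describes genes already chosen for their role in division, and a match is not a binding site. In the lines below the capitals mark CCAAT and TTTGAA on either strand, in windows chr3:27153805-27154104 (minus strand), chr5:30666636-30666935 (plus) and chr8:22185770-22186069 (minus).
Ect2: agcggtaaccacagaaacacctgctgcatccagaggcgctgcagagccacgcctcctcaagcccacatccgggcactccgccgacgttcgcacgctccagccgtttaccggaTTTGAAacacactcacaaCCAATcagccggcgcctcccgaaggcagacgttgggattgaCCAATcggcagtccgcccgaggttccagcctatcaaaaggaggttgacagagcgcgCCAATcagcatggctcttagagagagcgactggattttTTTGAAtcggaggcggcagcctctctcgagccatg
Cenpa: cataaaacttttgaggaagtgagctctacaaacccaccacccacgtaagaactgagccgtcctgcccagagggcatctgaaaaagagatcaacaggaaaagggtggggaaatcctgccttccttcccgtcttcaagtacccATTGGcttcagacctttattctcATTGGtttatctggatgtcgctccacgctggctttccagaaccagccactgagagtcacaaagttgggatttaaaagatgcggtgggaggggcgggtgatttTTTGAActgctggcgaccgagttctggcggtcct
Ckap2: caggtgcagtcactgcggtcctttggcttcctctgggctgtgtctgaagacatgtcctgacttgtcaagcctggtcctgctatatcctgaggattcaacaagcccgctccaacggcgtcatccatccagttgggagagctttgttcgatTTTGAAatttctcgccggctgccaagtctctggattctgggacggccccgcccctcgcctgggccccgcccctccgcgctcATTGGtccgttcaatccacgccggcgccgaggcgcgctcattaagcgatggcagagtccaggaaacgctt

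The forkhead letters GTAAACA or GTAAATA were found, on either strand, in 8 of 146 windows of 97 genes that fell (5.48%) and in 1 of 46 windows of 36 genes that rose (2.17%), with the other genes of each set not matched. The share was 3.92% of windows of all tested genes and 6.545% of all windows of the table. These counts say only which letters are in these windows.

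Genes that serve antigen presentation rose in KO. Of 23 tested genes of the interferon response and antigen presentation, 4 rose (17.4%, against 0.419% of all genes) and 0 fell. By estimate 20 were positive, beside 54.7% of all genes, and the median was 0.58. Earlier results of these data were known when the list was drawn up, so its share and signs are no independent evidence. The 4 that rose were B2m, Psmb8, Psmb9 and Tap1, which supply the light chain, cut the peptides and carry them for MHC class I. B2m was at 729.8 and 704 CPM in anagen KO against 383, 414 and 501 CPM in WT, and at 1152, 729, 901 and 839 CPM in early telogen KO against 355, 301 and 443 CPM in WT. It was higher in KO without overlap at both stages, with a shared log2 fold change of 0.94 ± 0.17 (edgeR adjusted p = 0.0153). Psmb9 rose by 1.27 ± 0.28, Psmb8 by 1.12 ± 0.26 and Tap1 by 0.83 ± 0.17 in log2 units (edgeR adjusted p of 0.0391, 0.0482 and 0.0303). Psmb9 and Tap1 overlap on opposite strands of chromosome 17 (34181987 to 34187764 and 34187553 to 34197225), and whether the counting used strand is not given in the sources used here.

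The antigen presentation calls also moved with single libraries. Of the 23 genes 0 rose without early telogen WT replicate 3 and 1, B2m, without anagen KO replicate 1, anagen WT replicate 2, early telogen WT replicate 1 or early telogen WT replicate 4. With early telogen KO replicate 1, 2 or 5 left out, 2 rose. Markers of immune cells, which express these genes too, had no member that passed among 13 tested in edgeR, with 3 at an unadjusted p under 0.05 and Ptprc called by DESeq2, but 11 were positive with a median of 0.91. The summed level of the 6 defining immune markers was 39.4 to 171.8 CPM in anagen KO, 17.9 to 108 CPM in anagen WT, 54.9 to 227.5 CPM in early telogen KO and 14.01 to 89.0 CPM in early telogen WT, and 0 of the 6 were at 0 in every library of a group. Ptprc, the pan-leukocyte marker CD45, was at 2.09 ± 0.71 (edgeR adjusted p = 0.161). The part of immune cells in the antigen presentation values was not tested.

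Other signalling genes of this kind rose. Cxcl10, a chemokine induced by interferon, was at 29.9 and 53.6 CPM in anagen KO against 18.9, 8.70 and 7.74 CPM in WT, and at 6.39, 2.37, 6.32 and 4.25 CPM in early telogen KO against 0.268, 1.48 and 0.980 CPM in WT. It rose by 1.94 ± 0.38 in log2 units (edgeR adjusted p = 0.0226), without overlap at either stage. Lgals9, the lectin galectin 9, rose by 1.30 ± 0.20 (edgeR adjusted p = 0.00823), and the interferon receptor chains Ifngr1 (1.07 ± 0.20, edgeR adjusted p = 0.0195) and Ifnar2 (1.11 ± 0.24, edgeR adjusted p = 0.0411) rose too. Lgals9, Ifngr1 and Ifnar2 were singled out after their values were seen. Il1rn, the natural antagonist of the interleukin 1 receptor, was at 50.7 and 37.5 CPM in anagen KO against 24.2, 11.7 and 23.1 CPM in WT and at 48.9, 52.8, 56.5 and 53.4 CPM in early telogen KO against 24.1, 14.4 and 24.8 CPM in WT. All 6 KO libraries lay above all 6 WT libraries, whatever the stage, with a shared log2 fold change of 1.14 ± 0.18 (edgeR adjusted p = 0.00996). Il1rn was the 1 of 15 tested wound keratinocyte genes that passed (6.67% rose, against 0.419% of all genes). In the 12 fits that left out a library Il1rn and Lgals9 passed in 12, Ifngr1 in 10, Cxcl10 in 9 and Ifnar2 in 2.

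Ctsc, Cmah, Trf, Scrg1 and Basp1 also rose. Ctsc, the lysosomal dipeptidyl peptidase cathepsin C, was at 160.1 and 108 CPM in anagen KO against 42.9, 30.6 and 33.6 CPM in WT, and at 17.7, 24.7, 40.1 and 32.9 CPM in early telogen KO against 11.3, 2.69 and 9.96 CPM in WT. KO was above WT at both stages, with a shared log2 fold change of 1.77 ± 0.27 (edgeR adjusted p = 0.00823). Cmah, which hydroxylates sialic acid, was at 617 and 608 CPM in anagen KO against 293, 81.8 and 206 CPM in WT, and at 1.62 to 5.07 CPM in early telogen KO against 0.163 to 0.447 CPM in WT. Although early telogen levels were far lower in both genotypes, KO exceeded WT at each stage, with a shared value of 2.01 ± 0.38 (edgeR adjusted p = 0.0221). Trf, the iron carrier transferrin, was at 31.4 and 37.0 CPM in anagen KO against 8.07, 3.22 and 13.5 CPM in WT. Early telogen WT held 0 Trf counts and KO 12, at least 3.16-fold higher against a floor of 3 counts over the group, and its shared value of 2.21 ± 0.49 (edgeR adjusted p = 0.0411) is no bound. Scrg1 rose by 1.55 ± 0.27 (edgeR adjusted p = 0.0153) and Basp1 by 1.63 ± 0.37 (edgeR adjusted p = 0.0499). In the 12 fits that left out a library Ctsc and Scrg1 passed in 12, Cmah in 10, Trf in 3 and Basp1 in 1.

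The monocarboxylate transporter family members Slc16a6 and Slc16a11 rose by 2.01 ± 0.46 and 1.54 ± 0.36 in log2 units (edgeR adjusted p = 0.0482 for each), and Niacr1, a receptor for the ketone body hydroxybutyrate, rose by 1.59 ± 0.31 (edgeR adjusted p = 0.0251). Scd2, a fatty acid desaturase, rose by 1.48 ± 0.32 (edgeR adjusted p = 0.0424). Slc16a6 and Scd2 overlapped between genotypes in early telogen. Slc16a6 held 2 counts in early telogen KO replicate 5 and 0 to 16 in the WT libraries. Of the 738 Scd2 counts in early telogen KO, 430 were in replicate 2. Ucp2, a carrier of the inner mitochondrial membrane chosen after its values were seen, was at 4092 and 5069 CPM in anagen KO against 2475, 1593 and 2122 CPM in WT, and at 215, 194, 274 and 174 CPM in early telogen KO against 134, 61.5 and 67.0 CPM in WT. It rose by 1.10 ± 0.19 (edgeR adjusted p = 0.0124). In contrast to these, the glucose transporter Slc2a1 and the hexokinase Hk2 fell, by 0.87 ± 0.15 and 1.06 ± 0.23 (edgeR adjusted p of 0.0125 and 0.0364). They were 2 of 18 tested hypoxia and glycolysis genes (11.1%, against 1.05% of all genes). Of those 18 genes 12 were positive, with a median of 0.20. Slc2a1 was at 268 and 298 CPM in anagen KO against 407, 373 and 518 CPM in WT and at 405 to 458 CPM in early telogen KO against 704 to 899 CPM in WT. In the 12 fits that left out a library Ucp2 and Slc2a1 passed in 12, Niacr1 in 10, Hk2 in 6, Slc16a6 in 3, Scd2 in 2 and Slc16a11 in 1.

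Dsg2 and Gjb6, which encode junction proteins, rose. Dsg2, the desmosomal cadherin desmoglein 2, was at 142 and 126 CPM in anagen KO against 72.3, 35.8 and 113 CPM in WT, and at 47.0, 48.2, 62.8 and 63.4 CPM in early telogen KO against 26.1, 20.4 and 26.6 CPM in WT. It rose by 0.93 ± 0.21 in log2 units (edgeR adjusted p = 0.0482), and passed in 2 of 12 fits that left out a library. Dsg2 was the 1 of 26 tested cell-cell adhesion genes that passed (3.85% rose, against 0.419% of all genes), where 19 were negative and the median was -0.18. Gjb6, the gap junction protein connexin 30, rose by 1.54 ± 0.28 (edgeR adjusted p = 0.0162) and passed in 10 of those fits. Cdh1, E-cadherin, was at -0.28 ± 0.20 (edgeR adjusted p = 0.543).

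**Figure D4:**
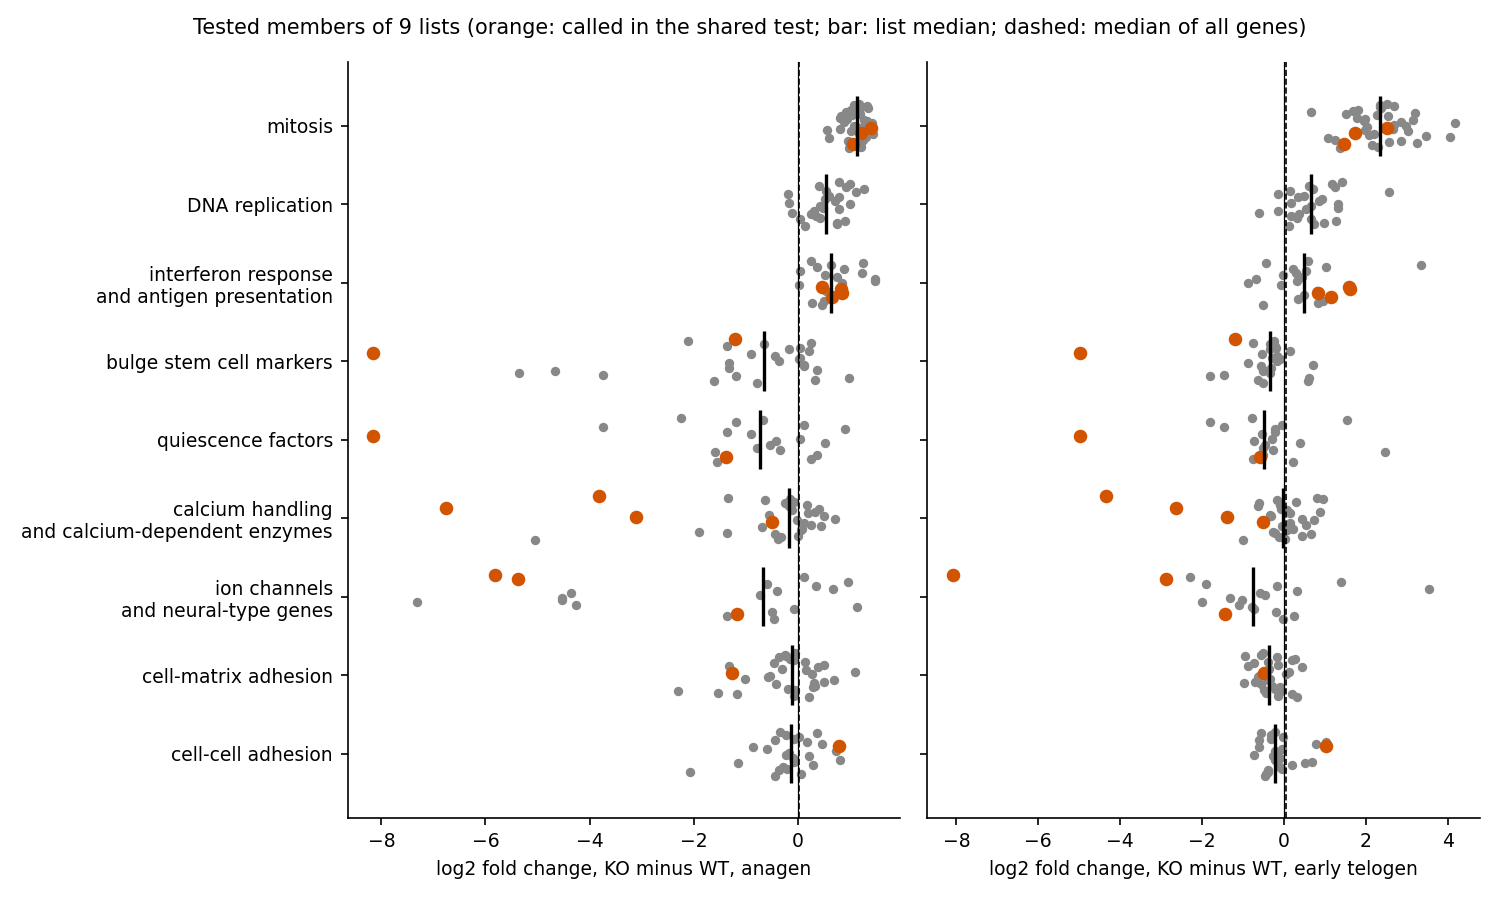
Log2 fold change (KO minus WT, x axis) of each tested member of 9 gene lists (y axis), for anagen on the left and early telogen on the right, with orange points for members called in the shared test, a bar at the list median and a dashed line at the median of all genes. All 39 mitosis genes lie to the right of 0 at both stages, and calcium-handling genes lie on both sides with 4 called lower.

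Most signalling and stress lists had no member called. In edgeR no member passed among the tested genes of the BMP and SMAD pathway (29), WNT antagonists (8), hedgehog pathway (11), NOTCH pathway (14), TGFB response (18), FGF and MAPK feedback (17), CDK inhibitors (13), p53 targets (12), redox enzymes (28), sterol and fatty acid synthesis (22) or serpins and secreted proteases (23). The medians of these lists lay between -0.30 and 0.24. At an unadjusted p under 0.05 they held 0 (NOTCH pathway) to 7 (BMP and SMAD pathway, and serpins and secreted proteases) genes. DESeq2 called 0 to 5 of their members, with 5 lower in the BMP and SMAD pathway. Among all 12425 genes tested, 1978 had an unadjusted p under 0.05, and DESeq2 called 286 higher and 453 lower. Of 14 WNT response genes, Myc was the member that fell (7.14%, against 1.05% of all genes). Among 26 immediate early and dissociation response genes 0 passed in edgeR, 5 had an unadjusted p under 0.05 and 2 passed in DESeq2. Of these 26, 23 were negative, with a median of -0.32. Gli1, a target of hedgehog signalling, was at 0.65 ± 0.25 (edgeR adjusted p = 0.223), with -0.10 in anagen and 1.16 in early telogen. Of 19 tested forkhead genes, Foxc1, the gene knocked out, was the member that fell (5.26%, against 1.05% of all genes), and the other 18 did not pass.

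Markers of other cell types had no gene that passed in edgeR among 8 tested for melanocytes, 12 for endothelium, 16 for fibroblasts and dermal papilla, 6 for muscle and 6 for Schwann cells and adipocytes. Each list held 0 to 3 genes at an unadjusted p under 0.05, and DESeq2 called at most 1 of each. Libraries did differ in them. Early telogen KO replicate 2 held 56.0 CPM of Ly6a, the marker sorted against, with 2.13 to 9.03 CPM in the other 11 libraries. The summed fibroblast markers ranged from 342 to 3285 CPM in early telogen KO and from 157.5 to 1018 CPM in early telogen WT. Leaving out early telogen KO replicate 2 together with early telogen WT replicate 3 left 4 genes higher and 22 lower, and 26 of these were among the 182.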

How the data were processed

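RNA-seq read counts per gene were used from 12 libraries of sorted mouse hair follicle stem cells. The authors deposited whole-number counts in one table per stage. TopHat2, HTSeq and the mm10 build are named, per the submitters' processing notes, with versions not given in the sources used here, and reads placed at more than 1 position were tallied apart from the gene counts in the anagen table. There were 38803 genes and 5 tally lines in the anagen table. The early telogen table held 37958 names, 3 broken lines that were dropped and 27 names turned into dates, and the 37931 names in both tables were kept. Library totals ranged from 2658749 to 52692280 counts, and the fewest counts, in early telogen KO replicate 5, limit low genes most.

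Genes were tested with edgeR 4.0.16 (quasi-likelihood test, TMM, minimum count 10, minimum total 15) in R 4.3.3, with stage and genotype as terms, Benjamini-Hochberg adjustment over 12425 genes and a threshold of 0.05. A fit of the 4 group means gave each stage's effect and their difference. Overlap of groups was judged on TMM-scaled CPM, while printed CPM use the total over shared genes. Alternatives were DESeq2 1.42.0, limma-voom (limma 3.58.1), other filters and scalings, equal weight to both stages, sex or a block as a term (the title day in anagen, with or without the replicate number in early telogen), thinned anagen counts and libraries left out. Scripts were tested on simulated data.

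Named genes were the 12 largest changes per direction among called genes with a mean of at least 5 CPM in a group, leaving out Foxc1, sex-linked genes and provisional names. To these were added up to 4 called members of each gene list (or up to 2 with the smallest p), a set of fixed genes and the genes called at both stages. The comparison and the lists were chosen with earlier results of these data known. Genes named beyond the rule are marked in the text. Some genes that the rule names are not reported here. Replicate pairs differed by more than sampling noise, so none was counted as a copy. Gene positions are from GENCODE M21 and promoters from RefSeq GRCm38.p6.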

Additional observations from a re-analysis of the deposited data

Results flagged for a closer look

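In groups of 4 libraries, 5 of 109 genes had a library apart from the other 3, and chance gives about 1 in 20. Early telogen KO was the only group with 4 libraries, so no other group could be flagged. In replicate 2, Ly6a was at 56.0 CPM (6.68 to 9.03 in the others), Psmb8 at 64.8 CPM (38.6 to 42.5) and Grik1 at 0.178 CPM (0 in the others). Hhip was at 7.90 CPM in replicate 5 (1.69 to 2.43 in the others), and Krt75 at 2.83 CPM in replicate 3 (5.87 to 6.39 in the others).

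The KO effect differed between stages for 4 of the named genes, none of which passed for the shared effect. The log2 fold change in early telogen minus that in anagen was 4.99 for Tgm5 (edgeR adjusted p = 0.00566), 4.07 for Wif1 (0.00566, by edgeR), 4.15 for Krt24 and 3.17 for Col6a1 (both 0.0212, by edgeR). Tgm5, Krt24 and Col6a1 were far lower in KO in anagen (-5.35, -4.66 and -3.84) and less so in early telogen (-0.36, -0.51 and -0.67). Wif1 had opposite signs, -1.60 in anagen and 2.47 in early telogen.

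The share of reads placed at more than 1 position was 31.1% in the lower of the anagen KO libraries and 20.1% to 25.8% in anagen WT. Its part in any result was not tested.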

How the results depend on the processing

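All 182 called genes with a value kept their sign under each alternative run, and no result reversed. The shared effect had 52 genes higher and 130 lower. It had 553 and 530 without a filter on low counts, 286 and 453 by DESeq2, and 98 and 263 with stages weighted equally. Without the libraries whose title and age label differ it had 26 and 44, and without early telogen KO 2 and WT 3 it had 4 and 22. With a replicate block (the title day in anagen, the replicate number in early telogen) it had 0 and 4. Blocking on the anagen title day alone, chosen after seeing the data, gave 90 and 148. Deviations from group means correlated at 0.45 and 0.38 for anagen libraries that share a title day, and at 0.08 and 0.04 for same-numbered early telogen libraries. Because anagen KO held 2 libraries, their deviations mirror each other, and the 2 anagen values are not independent. The values of the stages cannot be set against each other, and whether the early telogen numbers pair the samples is not known. Leaving out a library gave 12 to 117 higher and 43 to 197 lower, with the fewest without early telogen WT replicate 3. The anagen effect (155 genes) had 656 without a filter, 392 by DESeq2 and 64 with sex as a covariate, and 41 to 233 when a library was left out. The early telogen effect (32 genes) had 795, 439 and 49 under the same alternatives and 2 to 74 when a library was left out. It had 3 without the libraries with differing labels, and 3 without early telogen KO 2 and WT 3. The difference between stages (19 genes) had 409, 155 and 6, and 0 to 56 when a library was left out, with 2 and 0 without those pairs of libraries. The cause of these moves was not tested, and fits that left out libraries also held fewer samples. Of the values of single genes under alternatives, 4267 kept their side of the threshold, 1403 lost the call and 122 gained it. Early telogen KO replicate 5, at 2658749 counts, limits genes with few counts most.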
